A study of Mus musculus with 73 samples.

Results

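Axon guidance ligands and receptors are the surface and secreted proteins by which growing axons and their target cells read each other. The genes described here were chosen by symbol: ephrins (Efna, Efnb) and Eph receptors (Epha, Ephb), semaphorins of the numbered classes, plexins, the neuropilins Nrp1 and Nrp2, Slit1 to Slit3, Robo receptors, numbered netrins and symbols starting with Unc5. This gave 70 of the 55291 gene rows of the table, after 3 antisense rows of Plxna4 were left out, none of which had a count in any cell. The matches include Unc50, a membrane protein of the secretory pathway, and Unc5cl, a death-domain protein, which share letters but are not netrin receptors. The other 68 genes are 35 ligands and 33 receptors.

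The cells were 73 inner hair cells, picked by hand from mouse cochlea at postnatal day 14 and labelled Casz1 -/-. All came from the genotype Atoh1Cre/+; Casz1flox/flox with the Ai47 GFP reporter, which Cre switches on, a tdTomato reporter that Flp switches on, and Fgf8-Flpo/+. Cre is thus driven by Atoh1, a gene of developing hair cells, and Flp by Fgf8, an inner hair cell gene, and cells with both colours were collected. There is 1 group, with no animal named in the labels, and wild-type cells were not analysed here. The values thus describe these libraries, say nothing of what loss of Casz1 changed, and carry no p-value.

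Guidance proteins work in pairs. Ephrins on one cell bind Eph receptor kinases on another, and both sides can signal. Class 3 semaphorins are secreted and bind neuropilins, which signal through plexins, while semaphorins of the other vertebrate classes sit in the membrane and mostly bind plexins directly. Slits bind Robo receptors, and netrins bind Dcc, Neo1 and Unc5 receptors. In the cochlea, ephrin-A5 with EphA4, semaphorin 3F with neuropilin 2, and semaphorin 5B with A-type plexins have been linked to the sorting and branching of auditory nerve fibres among hair cells.

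Library depth was 11027945 to 37183702 counts (median 17333640), with 6954 to 10688 genes having a count. Levels are in CPM, the count relative to the library total, and detection means 10 CPM or more, or 110 to 372 counts depending on the library. Shares of cells carry exact 95% Clopper-Pearson intervals, which cover counting error only. Hair cell markers were present: 8 of 9 general hair cell markers were detected in all 73 cells and the other, Gfi1, in 69. Of 8 inner hair cell markers, 3 were detected in all 73: Calb2, and Otof and Slc17a8, which are also on the general list. Outer hair cell markers were detected too. Of 7, Sri was in 71 cells, Ocm in 68 (median 2112 CPM) and Kcnn2 in 63. Slc26a5 and Chrna9 were in 51 each, Chrna10 in 31 and Ikzf2 in 6. Casz1 itself had a median of 42.1 CPM (range 0 to 283) and was detected in 55 cells. The labels do not say which exons were removed, so this does not check the deletion. Other cochlear cell types were checked by 77 markers, of which 67 reached detection in fewer than 10 cells, and at least 1 of those 67 reached 50 CPM in 25 cells. The others were Pdgfra (40 cells), Cnp (29), Sox10 (27), C1qb (22), Emilin2 (19), Syn1 (18), Tecta (15), Col1a1 (14), Gjb6 (11) and Coch (10). Summed immune markers had a median of 0.222 CPM but reached 7747 CPM. Neuronal markers, which matter here because nerve endings carry guidance receptors, had a summed median of 1.37 CPM (range 0 to 103), and 8 of 12, among them Prph, Stmn2, Gap43 and Thy1, were detected in 0 cells, while Syn1 was detected in 18 (highest 100 CPM) and Tubb3 in 9 (highest 102 CPM).

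Few guidance genes were detected in most of these cells, and the others were found in some cells or in none. Of the 70 genes, 47 were detected in at least 1 cell (67.1%, against 62.5% of 21535 protein-coding gene rows). At least 5 cells held 28 of them (40%, against 48%), and at least 37 of the 73 cells held 5 (7.14%, against 22%). Those 5 were Sema5b, Sema3a, Epha4, Epha7 and the letter match Unc50, so 4 guidance genes in all. A cell held a median of 10 of the 70 genes (range 6 to 16), which was 9 without Unc50 and Unc5cl. Ligands and receptors were both represented in every cell, with medians of 5 ligands (range 1 to 9) and 4 receptors (range 1 to 8). The number per cell had a rank correlation of 0.329 with the number of genes with a count in the cell and -0.115 with total counts.

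**Figure D1:**
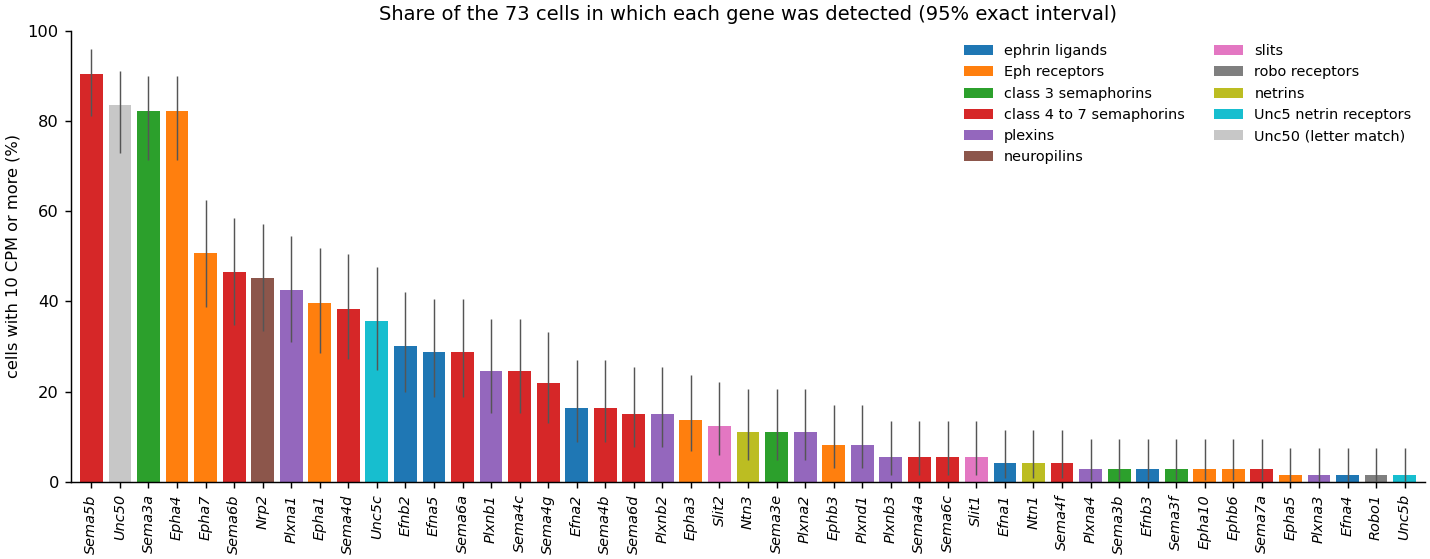
Share of the 73 cells in which each of the 47 genes detected in at least 1 cell reached 10 CPM, in percent, with bars coloured by role and error bars for the exact 95% interval over cells. Sema5b, Unc50, Sema3a and Epha4 stand above 80%, Epha7 is at 50.7%, and all other genes are below that.

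Sema5b, which encodes a transmembrane semaphorin with thrombospondin repeats, was the most regular member. In the mm10 build it spans chromosome 16, 35541145 to 35664732, plus strand. Its level had a median of 118 CPM (lowest 0, highest 506), with 66 of 73 cells at 10 CPM or more (90.4%, interval 81.2 to 96.1). It reached 100 CPM in 41 cells, and 2 cells had no count. Low cells were thus few.

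Sema3a, a secreted semaphorin that repels axons through neuropilin 1, came next among the ligands. It spans chromosome 5, 13125414 to 13602565, plus strand. Its median was 151 CPM (lowest 0, highest 558), and it was detected in 60 cells (82.2%, interval 71.5 to 90.2). In 48 cells it stood at 100 CPM or more, in 12 between 10 and 100 CPM, and in 13 below 10 CPM, of which 2 had no count. Most cells were therefore high, with the remainder spread down to 0.

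Epha4 led the receptors. It encodes a receptor kinase that binds ephrins of both classes, and spans chromosome 1, 77367185 to 77515088, minus strand. Its median was 63.7 CPM (lowest 0, highest 342), with detection in 60 cells (82.2%, interval 71.5 to 90.2) and no count in 5. Epha7, a related receptor on chromosome 4, 28813131 to 28967499, plus strand, had a median of 10.2 CPM, just at the detection threshold (lowest 0, highest 276). It was detected in 37 cells (50.7%, interval 38.7 to 62.6), and 12 cells held 100 CPM or more while 13 had no count. With library sizes scaled by TMM its share was 49.3%, so its place among the 5 rests on the scaling.

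All 4 of these genes were detected together in 27 cells, 3 of them in 28 cells, 2 in 13 and 1 in 5, and no cell lacked all 4. Per kilobase of exon, the scale on which genes can be compared, mean levels were 20.6 CPM per kb for Sema5b, 12.2 for Sema3a, 9.98 for Epha4 and 4.72 for Epha7. On the length of the longest transcript Sema3a rose to 28.6 CPM per kb and Sema5b to 31.4, and the order Unc50, Sema5b, Sema3a, Epha4 at the top was the same on both lengths. Unc50, a short transcript, had the highest mean of all 70 matches, 73.8 CPM per kb, and was detected in 61 cells.

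**Figure D2:**
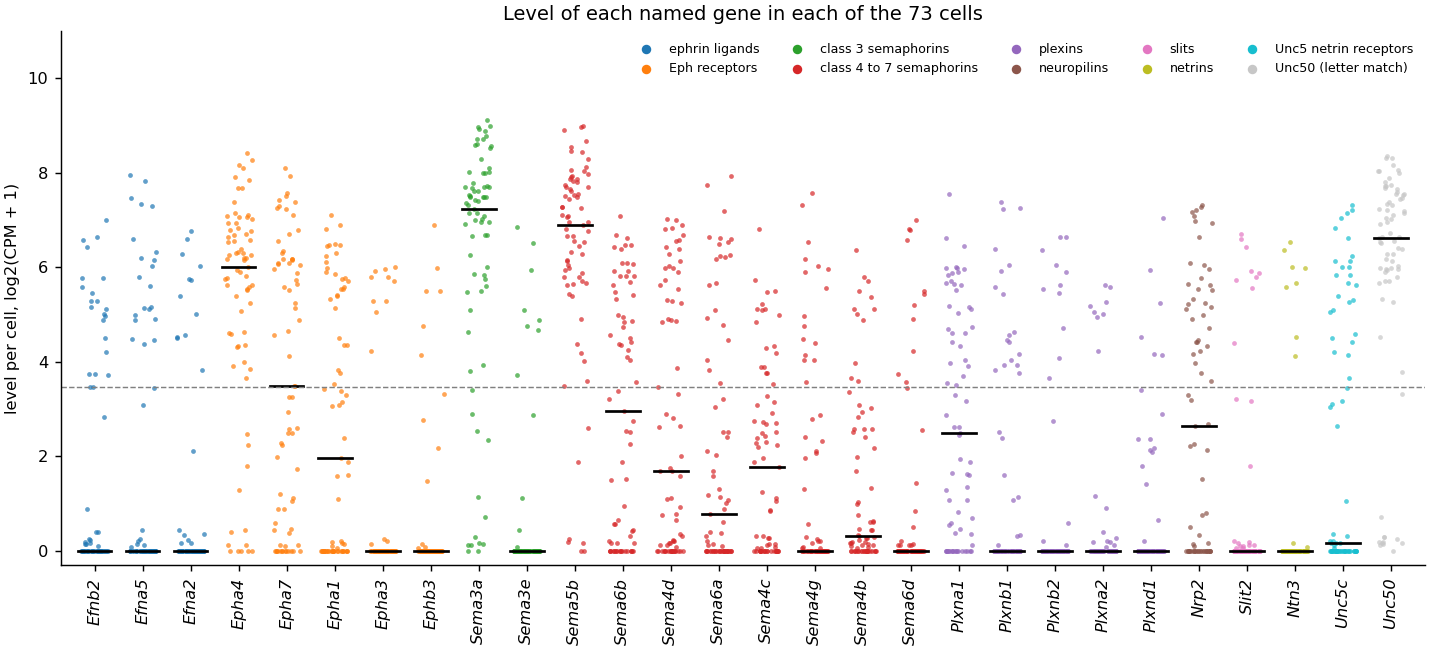
Level of the 28 genes detected in at least 5 cells, as log2(CPM + 1), with 1 point per cell, a black line at the median and a dashed line at 10 CPM. Sema3a, Sema5b, Epha4 and Unc50 have medians well above the line, while genes such as Efnb2, Efna5 and Epha3 combine a pile of cells at 0 with a separate set above the line.

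Among the other Eph receptors, Epha1 was the most frequent. It was detected in 29 cells (39.7%, interval 28.5 to 51.9), with a median of 2.90 CPM and a highest level of 136 CPM. Zyx, which encodes the focal adhesion protein zyxin, shares 236 exon bases with it on the opposite strand (6.01% of the Epha1 exons) and had a median of 109 CPM, with detection in 66 cells. No source says that counting used strand, so reads in the shared stretch cannot be told apart. The part of such reads in the Epha1 counts was not tested. Epha3 was detected in 10 cells (highest 63.8 CPM) and Ephb3, a receptor for B-type ephrins, in 6 (highest 117 CPM). Epha10, Ephb6 and Epha5 were found in 2, 2 and 1 cells. Epha6, Ephb2 and Ephb4 had counts but never reached 10 CPM, and Epha2, Epha8 and Ephb1 had no count in any cell. Of the 8 Eph receptors detected, 6 were of the A type, as were 9 of all 14 Eph receptors. At least 1 of the 14 was detected in 69 cells.

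Ephrins, the ligands of these receptors, were patchier. Efnb2, a transmembrane ephrin, was detected in 22 cells (30.1%, interval 19.9 to 42), with a median of 0 and a highest level of 127 CPM. Efna5, a membrane-anchored A-type ephrin, was detected in 21 cells (28.8%, interval 18.8 to 40.6), had no count in 44 cells, and reached 247 CPM. Where it was detected its median was 54.5 CPM, so its level was mostly either well above 10 CPM or at 0. Rac1, an effector gene counted below, likewise had no count in 30 cells and a median of 64.2 CPM where detected. Whether a cell with no count lacked the transcript was not tested. Efna2 was found in 12 cells (highest 108 CPM). Efna1 was found in 3 cells, Efnb3 in 2 and Efna4 in 1, while Efna3 stayed below 10 CPM and Efnb1 had no count. At least 1 of the 8 ephrins was detected in 43 cells.

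Semaphorins were the largest family by number of genes, with 16 of 20 detected in at least 1 cell (80%, against 62.5% of protein-coding gene rows) and 10 in at least 5 (50%, against 48%). At least 1 was detected in all 73 cells, and a cell held a median of 4 (range 1 to 7). Summed per cell, they had a median of 444 CPM (range 52.2 to 1021). Sema6b followed Sema5b among the membrane semaphorins, with detection in 34 cells (46.6%, interval 34.8 to 58.6), a median of 6.79 CPM and a highest level of 135 CPM. Sema4d, a ligand of B-type plexins, was detected in 28 cells (38.4%, interval 27.2 to 50.5), with a median of 2.22 CPM and a highest level of 129 CPM. It had a rank correlation of 0.340 with the summed immune markers, whose part in its level was not tested. Of its cells, 8 had a rare marker of another cell type at 50 CPM and 20 did not. Sema6a was detected in 21 cells and reached 243 CPM.

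Sema4c and Sema4b, also of class 4, had low levels spread over many cells. Sema4c was detected in 18 cells but had a count in 52, and 22 cells lay between 1 and 10 CPM (median 2.43, highest 112 CPM). D430040D24Rik shares 334 exon bases with it on the opposite strand and was detected in 19 cells. Sema4b likewise was detected in 12 cells and had a count in 51 (highest 81.3 CPM). Sema4g was detected in 16 cells, with no count in 40 and a highest level of 191 CPM. Sema6d was found in 11 cells and Sema3e in 8, the latter a secreted semaphorin that binds Plxnd1 without a neuropilin. Sema4a and Sema6c were in 4 cells each, Sema4f in 3, and Sema3b, Sema3f and Sema7a in 2 each. Over the 19 members found in 1 to 4 cells there were 44 such detections, 14 of them in the 25 of 73 cells that had a rare marker of another cell type at 50 CPM. Sema3f, the class 3 ligand of neuropilin 2, reached 74.8 CPM in 1 cell, and its share was 2.74% (interval 0.334 to 9.55). Sema3c, Sema3d and Sema5a never reached 10 CPM, and Sema3g had no count.

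Of the semaphorin receptors, Nrp2 and Plxna1 were the most frequent. Nrp2, the neuropilin preferred by semaphorin 3F, spans chromosome 1, 62703285 to 62818695, plus strand. It was detected in 33 cells (45.2%, interval 33.5 to 57.3), with a median of 5.27 CPM and a highest level of 159 CPM. Nrp1, the neuropilin that carries the semaphorin 3A signal, was at the other extreme: 1 cell had a count, at 0.115 CPM, and 0 of 73 cells reached 10 CPM. The upper limit for that share of cells is 4.11% with 0 cells taken as 3 cells, and 4.93% from the exact interval. Sema3a transcripts were thus frequent in cells in which its neuropilin was not detected.

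Plxna1, a signalling receptor for class 3, 5 and 6 semaphorins, was detected in 31 cells (42.5%, interval 31 to 54.6), with a median of 4.63 CPM and a highest level of 186 CPM. The non-coding gene Gm26811 shares 970 exon bases with it on the opposite strand (10.7% of its exons) and was detected in 1 cell. Plxnb1, the main receptor of Sema4d, was detected in 18 cells (highest 165 CPM), Plxnb2 in 11, Plxna2 in 8 and Plxnd1 in 6. Plxnb1 had a rank correlation of 0.342 with the summed mesenchyme markers, whose part in its level was not tested. Plxnb3 was found in 4 cells, Plxna4 in 2 and Plxna3 in 1, and Plxnc1 never reached 10 CPM. At least 1 plexin was detected in 57 cells.

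Transcripts of the Slit and Robo pathway were rare. Slit2, a secreted repellent, was detected in 9 cells (12.3%, interval 5.80 to 22.1) and reached 103 CPM, and Slit1 was detected in 4 cells, while Slit3 never reached 10 CPM. Among the receptors Robo1 was detected in 1 cell at 25.3 CPM, Robo2 had a highest level of 0.497 CPM, and Robo3 and Robo4 had no count. No cell held a Slit together with Robo1 or Robo2 at 10 CPM.

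Netrins and their receptors were represented mainly by Unc5c. This repulsive netrin receptor was detected in 26 cells (35.6%, interval 24.7 to 47.7), with a median of 0.122 CPM and a highest level of 159 CPM, with 32 cells at 0. Unc5b was detected in 1 cell, and Unc5a and Unc5d in 0. Ntn3 was the most frequent netrin, in 8 cells (highest 92.3 CPM). It shares 89 exon bases (1.74% of its exons) on the same strand with Tbc1d24, which was detected in 14 cells, and reads there cannot be told apart. Ntn1, the classical netrin, had a count in 31 cells but reached 10 CPM in 3 (highest 19.2 CPM), and Ntn4 and Ntn5 never did. Dcc, the attractive netrin receptor, reached 0.693 CPM at most, and Neo1, its homolog, was detected in 32 cells.

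Cells that held a ligand and a receptor of the same class were counted, and such counts depend on how many cells held each side. For ephrin-A genes with Epha genes, 29 cells held a ligand and 69 a receptor. Both sides were in 27 cells (37%, interval 26 to 49.1), 42 held a receptor alone, 2 held a ligand alone and 2 held neither. For class 5 or 6 semaphorins (71 cells) with A-type plexins (38 cells), 37 cells held both and 34 the ligand alone. For class 3 semaphorins (64 cells) with a neuropilin (33 cells), 28 cells held both and 36 the ligand alone. The neuropilin was always Nrp2, as Nrp1 was not detected. All 28 cells held Sema3a, whose signal is carried by neuropilin 1, so this count is not one of matched pairs. Sema3f, the class 3 ligand of neuropilin 2, was detected in 2 cells. Class 4 semaphorins (49 cells) with Plxnb genes or Plxnd1 (32 cells) gave 21 cells with both. Ephrin-B genes (24 cells) with Ephb genes or Epha4 (61 cells) also gave 21. Netrins (11 cells) with their receptors (47 cells) gave 7 cells. Whether the sides met more often than these numbers alone would give was not tested. Cells with the receptor alone outnumbered cells with the ligand alone for ephrins and netrins, and the reverse held for the 3 semaphorin pairings. The sides differ in their number of genes, such as 5 Efna and 9 Epha genes, and Dcc and Neo1 were counted as netrin receptors.

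Slc26a5, the gene of the outer hair cell motor prestin, ranged here from 0 to 1229 CPM (median 73.1), with detection in 51 of 73 cells. Rank correlations with it were computed over the 73 cells as a description, because the cells are not replicates, and they share tissue, handling and library protocol. Among the 8618 other genes that averaged at least 10 CPM, 2.22% reached 0.5 in size, 1.35% on the positive side and 0.87% on the negative. Of the 16 matches with such a mean, Unc50 among them, 0 did. Their median was -0.0886 (range -0.328 to 0.372), beside -0.0304 for all 8618 genes (quartiles -0.148 and 0.0944). Positive values were found for 7 (43.3% of all genes) and negative values for 9 (56.7%). Without Unc50 the median over 15 genes was -0.145, with 6 positive and 9 negative. The values were thus spread to both sides of 0, and the summed level of all 70 had a correlation of -0.0350 with it.

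**Figure D3:**
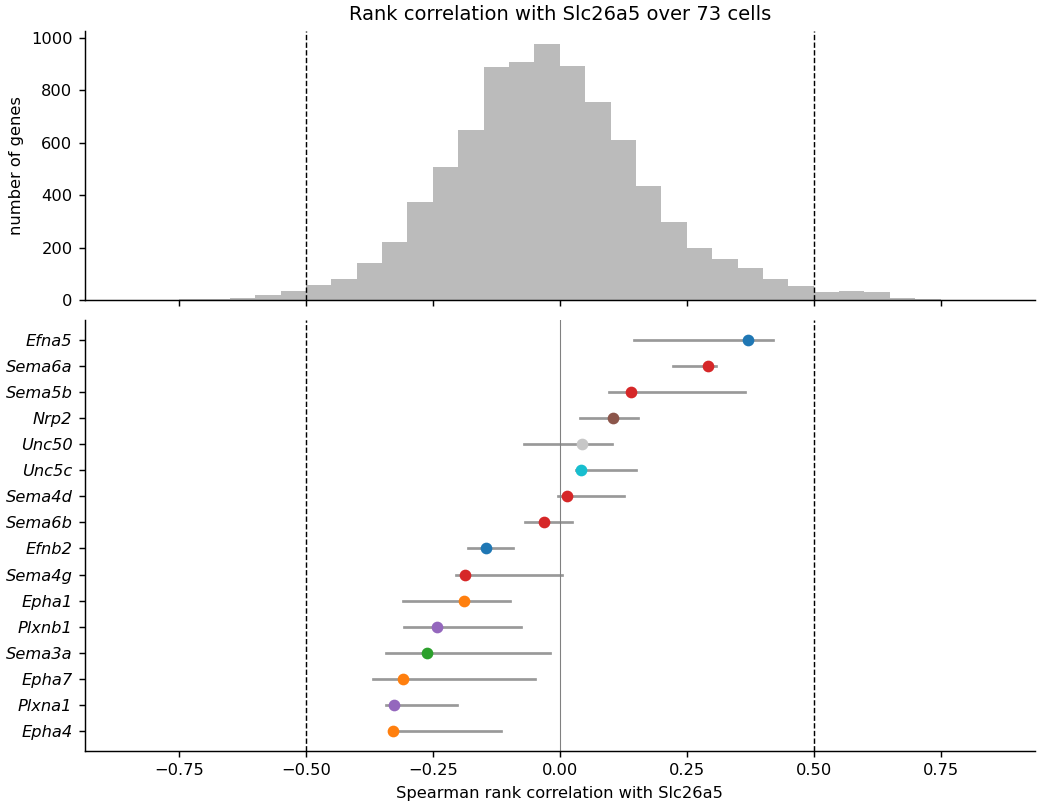
Spearman rank correlation with Slc26a5 over the 73 cells. The upper panel counts the 8618 genes that averaged at least 10 CPM, and the lower panel shows the 15 guidance genes among them and Unc50, with a point for the value and a grey line for its range over 10 alternative computations. Dashed lines mark 0.5 in size, and no guidance gene reaches them under any of the 10, the largest value being 0.420.

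Receptors held the lowest values. Epha4 stood at -0.328, Plxna1 at -0.326, Epha7 at -0.310 and Plxnb1 at -0.242, with Sema3a at -0.262 the lowest ligand. Epha1 stood at -0.188 and Sema4g at -0.186. At the upper end were Efna5 (0.372), Sema6a (0.292), Sema5b (0.139), Nrp2 (0.105) and Unc50 (0.0434). Efnb2 (-0.145), Sema6b (-0.0319), Sema4d (0.0150) and Unc5c (0.0423) completed the 16. Summed over the 14 Eph receptors, the level had a correlation of -0.406 with Slc26a5, and summed over the 8 ephrins 0.276. Such sums weigh abundant genes most, and not every gene shared the sign of its family, as with Efnb2 (-0.145) and Ephb3 (0.425). The sums were not corrected for the library properties described below.

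Among less abundant members, Ephb3 had a value of 0.425, Ntn1 0.383, Sema3e 0.337 and Plxnd1 -0.308, but 56 or more cells had no Plxnd1, Sema3e or Ephb3 count, so those ranks rest on few values, and Ntn1, with a count in 31 cells, reached 10 CPM in 3. All 6 cells with Ephb3 and all 8 with Plxna2 also held Slc26a5 at 10 CPM, against 69.9% of all cells.

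Properties of the libraries moved along with these values. Slc26a5 had a correlation of 0.654 with the share of counts from ribosomal protein genes, and Epha7, Sema3a and Epha4 had -0.422, -0.381 and -0.378 with that share. With ranks corrected for it, the values with Slc26a5 were -0.0492 for Epha7, -0.0189 for Sema3a and -0.116 for Epha4, while Sema5b moved up to 0.364. Corrected for the mitochondrial share, with which Slc26a5 had a correlation of -0.488, Sema3a stood at -0.158 and Epha4 at -0.256. Plxna1 stood at -0.218 corrected for the ribosomal share and -0.203 for the mitochondrial share. The part of these library properties in the correlations was not tested.

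Efna5 had the highest value of the 16. Of its 21 cells, 19 also held Slc26a5 at 10 CPM (90.5%, against 69.9% of all cells), and of the 22 cells without Slc26a5, 20 lacked Efna5, as did 52 of all 73. A further 32 cells had Slc26a5 and no Efna5. Sema6a showed the same counts, 19 cells with both and 2 with Sema6a alone. Efna5 also had a correlation of 0.499 with the summed glial markers, whose level ran from 0 to 498 CPM (median 46.2) and had a correlation of 0.528 with Slc26a5. Within that list of 12, Sox10 and Cnp were detected in 27 and 29 cells and every other marker in 0 or 1, with Mbp, Pmp22, Cdh19, Erbb3 and Prx in 0. Sox10 alone had a correlation of 0.528 with Efna5 and was detected in 18 of its 21 cells. Corrected for the glial sum, the correlation of Efna5 with Slc26a5 was 0.147, and for the ribosomal share 0.150; the part of either in the result was not tested.

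**Figure D4:**
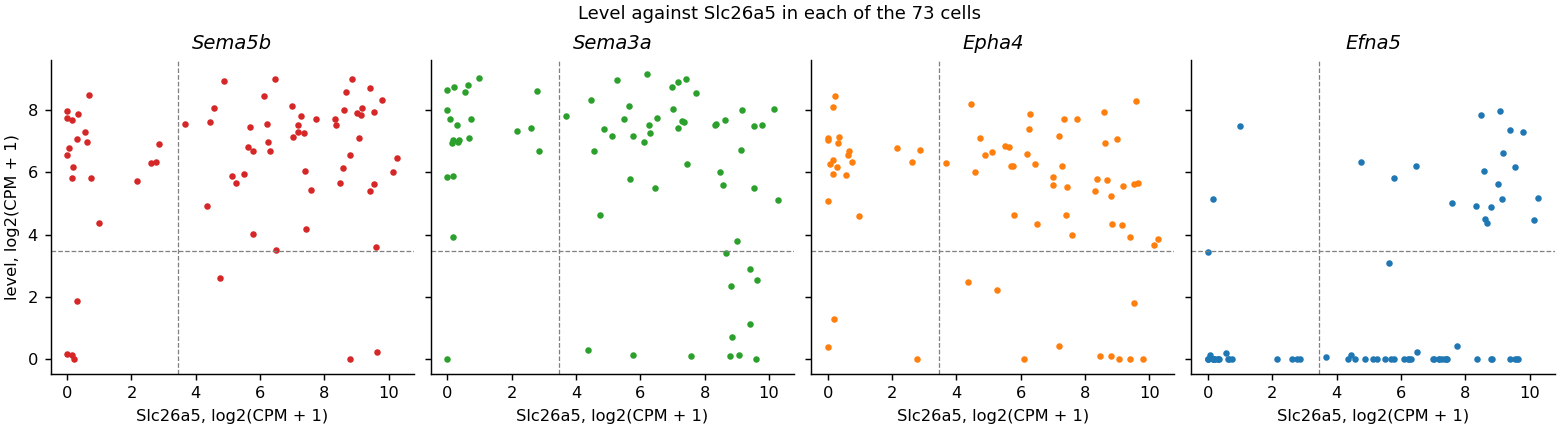
Level of Sema5b, Sema3a, Epha4 and Efna5 against Slc26a5 in the 73 cells, both as log2(CPM + 1), with dashed lines at 10 CPM. Sema5b is above its line in 48 of the 51 cells with Slc26a5 and in 18 of the 22 without. The 13 cells below the line for Sema3a lie mostly to the right, with 12 of them above the Slc26a5 line. For Efna5, 19 of its 21 cells lie above both lines.

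Sema3a was found with and without Slc26a5. Of the 13 cells below 10 CPM for Sema3a, 12 held Slc26a5 at 10 CPM, against 69.9% of all cells, and of the 22 cells without Slc26a5, 21 held Sema3a, against 82.2% of all cells. Over 352 pairings of the 16 members with 22 hair cell genes, which had a median of 0.0145, 2 reached 0.5 in size. These were Sema3a with Calb2, the calcium buffer calretinin (0.579), and Epha4 with Fgf8 (-0.511). Fgf8 had a correlation of 0.583 with Slc26a5 in these cells, while the other inner hair cell markers had negative values with it. Against Calb2, 0.72% of all comparable genes reached 0.5 and 0.928% reached -0.5, and against Fgf8 the shares were 0.499% and 0.395%. Next came Sema3a with Otof, the calcium sensor of vesicle release (0.491), Sema4g with Calb2 (0.462) and Epha4 with Sri (-0.451). Other inner hair cell genes gave lower values with Sema3a. These were 0.326 for Slc17a8, 0.300 for Slc7a14, 0.254 for Atp2a3, 0.177 for Dnajc5b, 0.0726 for Tbx2 and -0.158 for Fgf8. Epha4 had positive values with the inner hair cell markers other than Fgf8, from 0.164 for Otof to 0.406 for Tbx2. Sema3a had a correlation of -0.395 with the summed glial markers and 0.265 with the mitochondrial share, whose part in these values was not tested.

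Correlations between members were low, and pairs of other genes were not computed for comparison. Over the 22 genes detected in at least 10 cells, the 231 pairs had a median rank correlation of 0.0142 (quartiles -0.0756 and 0.103), and 0 pairs reached 0.5 in size. The highest were Plxna1 with Sema4g (0.370), Sema3a with Sema4g (0.330), Unc5c with Efna2 (0.317), Efna2 with Sema4b (0.297) and Epha7 with Plxna1 (0.289). All 16 cells with Sema4g also held Sema3a, against 82.2% of all cells. The lowest were Efna5 with Sema4g (-0.320), Unc5c with Plxnb2 (-0.305), Nrp2 with Efnb2 (-0.252), Epha4 with Efna5 (-0.247) and Sema4d with Efnb2 (-0.242). The ligand Efna5 and its receptor Epha4 were detected together in 17 of the 21 cells with Efna5, and Epha4 was detected in 82.2% of all cells. The most regular members, Sema5b, Sema3a and Epha4, appear in 1 of the 5 highest pairs and 1 of the 5 lowest.

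**Figure D5:**
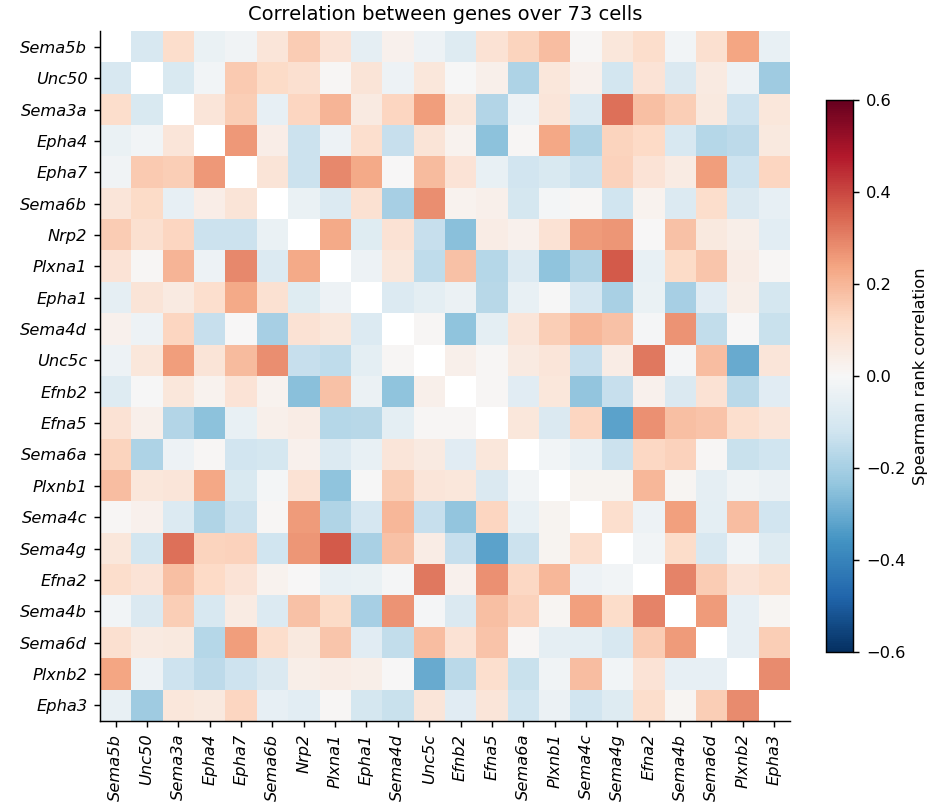
Spearman rank correlation between the 22 genes detected in at least 10 cells, over the 73 cells, on a colour scale from -0.6 to 0.6 with genes in order of the number of cells. Colours are pale throughout, with values from -0.320 to 0.370 and a median of 0.0142.

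Of 85 other genes of the guidance pathways, 32 were detected in at least 37 cells (37.6%, against 22% of protein-coding gene rows). The lists within it lay on either side of the 22%. Of 24 coreceptors and further cues, 17 were detected in at least 1 cell (70.8%, against 62.5%) and 3 in at least 37 (12.5%, against 22%). These included Dscaml1, an adhesion molecule of the Dscam family (60 cells, median 58.5 CPM), and Lrig2 (51 cells, 51.8 CPM). The other was Fzd3, a Wnt receptor of axon guidance (45 cells, 30.6 CPM). Of 61 cytoplasmic effectors, 55 were detected in at least 1 cell (90.2%, against 62.5%) and 29 in at least 37 (47.5%, against 22%). Pak3, a kinase downstream of Rac and Cdc42, was detected in all 73 cells (median 684 CPM), as were Dpysl2, also called CRMP2, which relays semaphorin signals (532 CPM), Cdc42 (366 CPM) and Gsk3b (347 CPM). Sdcbp, Cfl1 and Enah were in 72 cells each, Limk2 in 68 and Rock1 in 63. Srgap3, a Slit and Robo effector, was in 62 cells, as were Mical2 and Cdk5. Abl2 and Rhoa were in 61, Vav3 in 60, Srgap1 in 57, Pak2 in 56, Pick1 in 54, Nck2 in 49, Rnd1 in 48 and Crmp1 in 45. Nck1 and Rasa1 were in 42, Rock2 and Adam10 in 41, and Pak1, Sos1 and Arhgef12 in 39.

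Correlations of this size with Slc26a5 were found among the effectors. Of 50 of these pathway genes that averaged at least 10 CPM, 2 reached 0.5 in size, both negative: Dpysl2 at -0.598 and Mical2, an actin-oxidising enzyme of the family that binds plexins, at -0.575. Mical2 did not reach it by Pearson correlation of log2 values (-0.495) or corrected for the mitochondrial share (-0.471), where Dpysl2 stood at -0.517. These pathway genes were not corrected for the ribosomal share, with which Slc26a5 had a correlation of 0.654. Their relatives Mical3 (0.318), Dpysl4 (0.239) and Crmp1 (-0.000818) were not negative to that extent. The share of all genes of this size was 2.22%. The next values were Pak3 (0.445), Ablim1 (-0.354) and Srgap3 (0.344), and the median over the 50 was -0.0363, close to the -0.0304 of all genes.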

How the data were processed

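Counts are those the authors deposited, as whole numbers, with 55292 rows and 1 column for each cell. Per the labels' protocols, cDNA was made with a full-length Smart-Seq HT kit without molecular identifiers, so PCR copies are counted. The build mm10, featureCounts 2.0.1, StringTie 2.2.1 and HISAT2 2.2.1 come from the submitters' processing notes; roles, settings and annotation are not given in the sources used here. All 73 columns matched a title. The reporter row WPRE (0.0161% of counts) was left out of totals. The lowest chi-square per gene between 2 of 2628 pairs of libraries was 468, so none was a repeat.

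CPM used library totals, and correlations are Spearman values. Positions and exon lengths come from GENCODE vM21 of the same build, which held all 70 symbols. Exons of 18 of the 70 genes overlap another gene's. Named genes were those detected in 5 or more cells, the 5 highest and lowest correlations, the 5 highest and lowest pairs, pathway genes in 37 or more cells and the 5 farthest from 0; others were chosen after their values were seen, and not every gene so named is reported here. Members and lists were chosen with earlier results of these data known. No doublet caller was run on hand-picked cells. Tools were Python 3.11.15, scipy 1.17.1, numpy 2.4.6, matplotlib 3.10.9, pandas 2.3.3, and, for scaling alternatives, R 4.3.3 with edgeR 4.0.16 and DESeq2 1.42.0. The correlation step was tested on simulated data.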

Additional observations from a re-analysis of the deposited data

How the results depend on the processing

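The detection threshold set how many genes counted as regular. At 1 CPM, 11 genes in place of 5 were detected in at least 37 cells, and 14 when any count was enough. Shares of all protein-coding gene rows were computed at 10 CPM only, so these counts cannot be called few or many. The median number per cell was 6 at 50 CPM and 16 with any count, in place of 10. TMM scaling gave 4 such genes, and leaving out the 25 cells with a rare marker of another cell type, chosen after seeing the data, gave 5 genes in at least 25 of the remaining 48 cells, which is over 50% as 37 is of 73. No guidance gene reached a correlation of 0.5 in size with Slc26a5 under Pearson correlation, TMM or DESeq2 scaling, the corrections for mitochondrial share, total counts, number of genes, ribosomal share or glial markers (these last 2 chosen after seeing the data), other filters on the mean, or without those 25 cells. The sign changed in at least 1 of the 10 alternatives for 4 of 16 genes: Sema4d, Sema4g, Sema6b and Unc50. No paired analysis was possible because the cells form 1 group and no test was made. Depth bears on levels far under 10 CPM, since 1 count is 0.0269 to 0.0907 CPM.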
